A study of Mus musculus with 3 samples.

Results

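The genes described here are 44 genes of the kinetochore, the mitotic spindle and cell division. They were chosen by symbol, and all 44 were found among the 27999 entries of the count tables. They were followed in single cells of 3 mouse brain tumours, numbered 1, 2 and 4 as in the labels, which form 1 group with no control animals. All 3 carried the genotype H3f3a K27M, Pdgfra D842V and Trp53 R270H, that is, an altered histone H3.3, an altered growth factor receptor and an altered p53. The mice, on a B6.129(Cg) background, carried 1 copy of the reporter allele Gt(ROSA)26Sortm4(ACTB-tdTomato,-EGFP)Luo, and their brains were electroporated with MADR constructs on postnatal day 1 or 2. MADR places a transgene at a chosen locus, so the altered proteins are made only in cells that took up and inserted the constructs, and the tumour has a normal host brain around it. The promoter that drives the transgenes is not given in the labels. Tumours 1, 2 and 4 were collected on postnatal days 150, 106 and 149, and GFP-positive cells were sorted from them before droplet-based 3′ RNA sequencing.

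Mitosis begins when the kinase Cdk1, bound to cyclin B, is switched on. Microtubules of the spindle then attach to each chromosome at its kinetochore, a protein platform built on the centromere, while a checkpoint holds back the next step until all chromosomes are attached. The anaphase-promoting complex (APC/C) then marks cyclin B and the cohesin protector securin for destruction, the sister chromatids part, and the midzone of the spindle guides the cut between the daughter cells. The mRNAs of most of these proteins are made late in the cycle, from the end of S phase to mitosis, in any dividing cell. In the brain they are read as a sign of dividing progenitors or tumour cells.

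By role, 12 of the genes belong to the kinetochore and centromere, 3 to the spindle checkpoint, 7 to mitotic entry, 4 to the chromosomal passenger complex, 2 to the APC/C pathway, 7 to spindle assembly, 5 to the midzone and cytokinesis and 4 to chromosome structure. By timing, 32 were counted as early, acting from mitotic entry to chromosome alignment, and 8 as late, acting from anaphase onset to cytokinesis (Cdc20, Ube2c, Cdca2, Kif4, Kif23, Prc1, Ect2 and Cep55). The 4 passenger genes act in both periods and were left out of that split.

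Genes of mitosis are known to share 2 promoter elements, the cell cycle genes homology region (CHR) and the CCAAT box bound by NF-Y. Promoter windows reaching from 250 bases before to 50 bases after the gene start were at hand from RefSeq for 36 of the 44 genes, on GRCm38.p6, the same assembly as mm10. The letters TTTGAA for the CHR and CCAAT for the box were searched on both strands; a match of one can share end bases with a match of the other. TTTGAA stood in 26 of the 36 windows (72.2%), against 18.1% of 27025 windows of the same length, 1 for each gene symbol. CCAAT stood in 28 of the 36 (77.8%), against 37.9% of all windows. Both motifs stood in 22 of the 36 (61.1%), against 7.12% of all windows. All 7 late genes with a window held TTTGAA, as did 18 of 27 early genes. The following 6 stretches show how the motifs lie in genes that rose together in the results. Each is the 250 bases before the gene start on the gene's strand, 5′ to 3′, with every match to either motif on either strand in capitals.

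Ccnb1, chr13:100786487-100786736, minus strand: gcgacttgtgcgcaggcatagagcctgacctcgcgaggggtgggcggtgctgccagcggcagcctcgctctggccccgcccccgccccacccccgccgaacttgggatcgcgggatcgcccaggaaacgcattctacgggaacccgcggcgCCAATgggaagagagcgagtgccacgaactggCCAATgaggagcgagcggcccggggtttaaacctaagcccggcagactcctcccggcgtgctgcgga
Cdc20, chr4:118437344-118437593, minus strand: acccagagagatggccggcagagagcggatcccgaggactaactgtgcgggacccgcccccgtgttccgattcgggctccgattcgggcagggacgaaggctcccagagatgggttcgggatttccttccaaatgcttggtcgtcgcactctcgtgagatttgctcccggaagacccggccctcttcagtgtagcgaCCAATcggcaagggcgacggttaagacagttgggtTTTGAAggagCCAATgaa
Plk1, chr7:122159185-122159434, plus strand: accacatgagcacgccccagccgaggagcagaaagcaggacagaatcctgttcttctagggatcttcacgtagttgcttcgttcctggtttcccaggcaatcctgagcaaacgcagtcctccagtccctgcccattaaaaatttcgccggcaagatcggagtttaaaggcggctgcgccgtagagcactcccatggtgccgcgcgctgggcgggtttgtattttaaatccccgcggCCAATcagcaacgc
Cdk1, chr10:69352913-69353162, minus strand: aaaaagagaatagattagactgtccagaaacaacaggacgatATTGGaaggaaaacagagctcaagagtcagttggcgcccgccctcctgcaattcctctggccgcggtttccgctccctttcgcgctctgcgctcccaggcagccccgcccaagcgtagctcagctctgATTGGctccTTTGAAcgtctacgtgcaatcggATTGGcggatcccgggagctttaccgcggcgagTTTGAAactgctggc
Ccnb2, chr9:70421555-70421804, minus strand: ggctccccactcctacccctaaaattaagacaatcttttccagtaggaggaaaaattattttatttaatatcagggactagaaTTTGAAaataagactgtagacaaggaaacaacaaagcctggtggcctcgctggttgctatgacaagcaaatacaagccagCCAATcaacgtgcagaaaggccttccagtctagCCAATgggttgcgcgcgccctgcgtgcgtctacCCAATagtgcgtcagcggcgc
Top2a, chr11:99024190-99024439, minus strand: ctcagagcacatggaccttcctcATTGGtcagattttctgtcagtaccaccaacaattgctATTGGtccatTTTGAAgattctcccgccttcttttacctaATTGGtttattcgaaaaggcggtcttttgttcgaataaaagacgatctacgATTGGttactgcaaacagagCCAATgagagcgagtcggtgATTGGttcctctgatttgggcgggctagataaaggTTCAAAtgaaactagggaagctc

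All 6 hold CCAAT in either orientation within 100 bases of the start. Cdc20, Cdk1 and Top2a hold the CHR letters between positions -23 and -15, counted from the gene start. Ccnb1 holds 2 CCAAT matches and no TTTGAA in its whole window, and Top2a holds 6 CCAAT matches and 2 of TTTGAA. In Plk1 and Ccnb2 a TTTGAA match lies after the start, outside the stretch shown. These are matches of letters only, and no binding was measured.

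The 3 libraries differed in depth and content. The tables held 3386, 1632 and 4624 barcodes, with 47120617, 15231673 and 53551127 unique molecular identifiers (UMIs, each 1 captured transcript) in tumours 1, 2 and 4, and 3360, 1548 and 4377 barcodes passed the filters. Pairs of libraries shared 6 to 20 barcodes. Clusters made without the 44 genes and other cell cycle genes gave 2881, 193 and 3440 progenitor-like cells (markers such as Pdgfra, Cspg4 and Olig2), 363 and 72 oligodendrocyte-like cells in tumours 2 and 4, and 170, 447 and 82 myeloid cells. Tumour 2 thus stood apart, with 12.5% of its cells progenitor-like, against 85.7% and 78.6% in tumours 1 and 4. The 3190, 1054 and 4295 cells outside immune, vascular and red cell clusters are called neural below, which includes unnamed clusters. Levels are given as CPM, that is, UMIs scaled to the same total for each group of cells. A 3′ kit counts each transcript near its end, so these levels are not divided by gene length. With 1 library for each tumour, intervals cover counting error only, and tumour, age and library cannot be told apart.

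The 44 genes together made up 2395 CPM (exact 95% Poisson interval 2381 to 2410) of neural cells in tumour 1, 822 CPM (805 to 839) in tumour 2 and 1676 CPM (1665 to 1687) in tumour 4, a mean of 1631 ± 788 CPM (SD, n = 3). Of the genes, 40 were highest in tumour 1 and lowest in tumour 2. Cenpa, Kif18b and Cep55 were highest in tumour 4 and lowest in tumour 2, and Aspm, highest in tumour 1, was lowest in tumour 4. The median ratio of the highest to the lowest tumour was 2.59. Single genes ran from 2.52 to 249 CPM in tumour 1, from 2.03 to 64.8 CPM in tumour 2 and from 2.95 to 177 CPM in tumour 4. In progenitor-like cells alone the sums were 2513, 272 and 1950 CPM, so tumour 2 stood further below the others than in all neural cells. The classes were not alike, however. Markers of committed oligodendrocyte precursors summed to 141, 2645 and 487 CPM in progenitor-like cells of tumours 1, 2 and 4, and oligodendrocyte markers to 835, 9980 and 3098 CPM, and their part in the difference was not tested. These differences between tumours have no test.

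**Figure D1:**
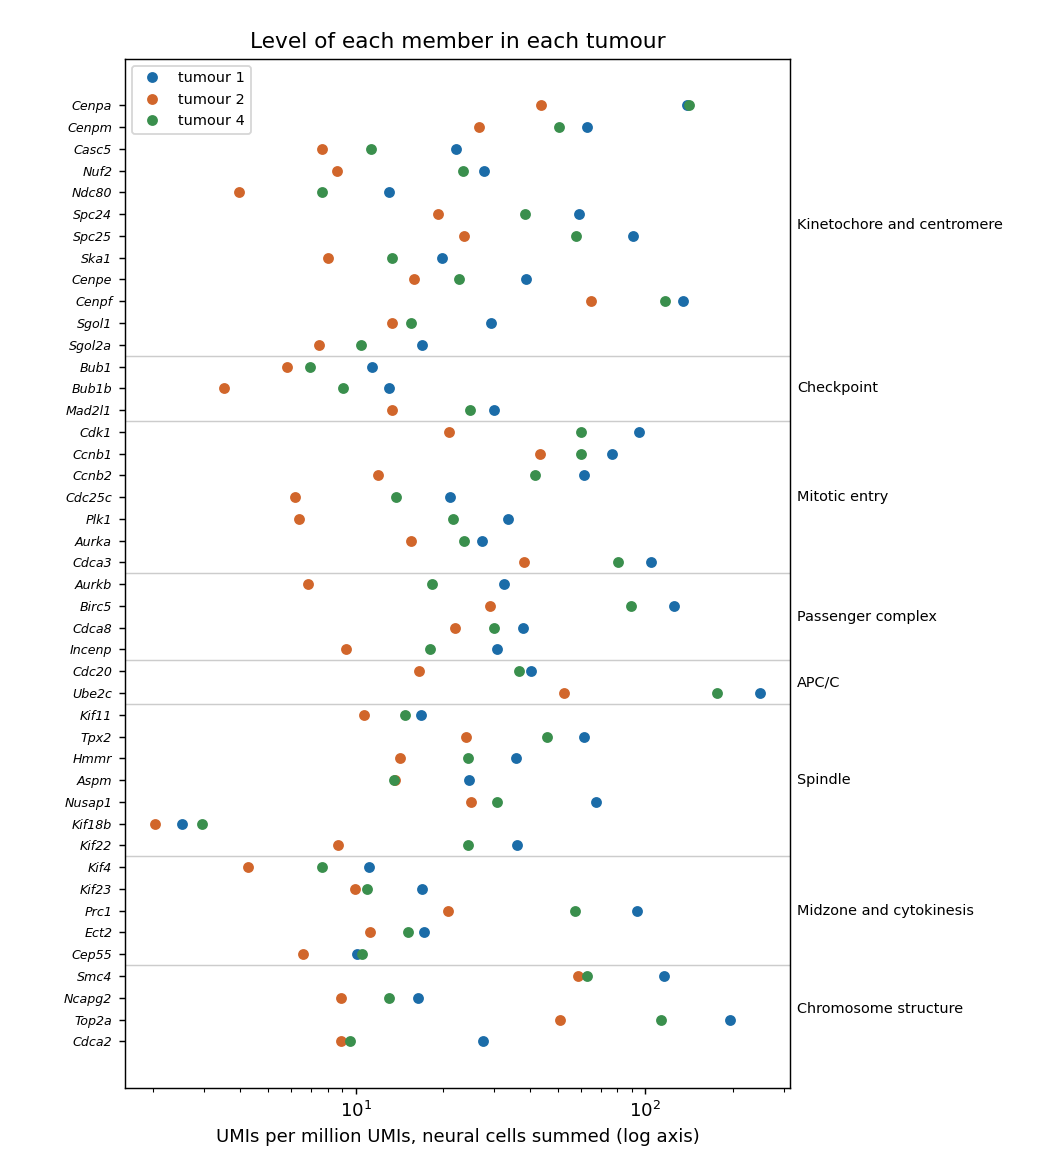
Level of each of the 44 genes in the neural cells of tumours 1, 2 and 4, in CPM on a log axis, ordered by role; each point is 1 library. Tumour 2 lies lowest for every gene but Aspm, and levels span from 2.03 CPM (Kif18b, tumour 2) to 249 CPM (Ube2c, tumour 1).

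In the kinetochore group Cenpa, the histone H3 variant that marks centromeres, had 139 CPM in tumour 1, 43.5 CPM in tumour 2 and 141 CPM in tumour 4, the most of the group in tumours 1 and 4. Cenpf, a large kinetochore protein, had 135, 64.8 and 117 CPM and was the higher in tumour 2. The least abundant was Ndc80, whose protein binds microtubule ends, with 13.0, 3.97 and 7.67 CPM. Tumour 2 was lowest for both, and tumours 1 and 4 were close for Cenpa and apart for Ndc80. Of the checkpoint genes, Mad2l1, the inhibitor of Cdc20, had 30.1, 13.4 and 24.8 CPM, and the kinase gene Bub1 had 11.4, 5.82 and 6.96 CPM. Tumours 2 and 4 lay near each other for Bub1. In the entry group Cdca3, whose product helps to remove the Cdk1 inhibitor Wee1, had 104.6, 38.3 and 80.4 CPM. Cdc25c, the phosphatase that activates Cdk1, had 21.2, 6.19 and 13.7 CPM, and its order over the tumours was that of Cdca3.

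Birc5, known as survivin and part of the passenger complex, had 126, 29.2 and 89.0 CPM, and Incenp, the scaffold of that complex, had 30.8, 9.24 and 18.0 CPM. Ube2c, the enzyme that passes ubiquitin to APC/C substrates, had 249, 52.5 and 177 CPM, the most of the 44 genes in tumours 1 and 4, while in tumour 2 Cenpf (64.8 CPM) and Smc4 (58.3 CPM) lay above it. Cdc20, which activates the APC/C, had 40.4, 16.5 and 36.8 CPM. The APC/C pair thus had a ratio of 4.19 between tumours 1 and 2, the highest of the 8 role groups, and the checkpoint group had the lowest at 2.40. Most UMIs of the pair were those of Ube2c. By gene the ratio was 4.74 for Ube2c and 2.44 for Cdc20, the latter near that of the checkpoint group. Among spindle genes Tpx2, an activator of the kinase Aurka, had 61.6, 24.1 and 45.7 CPM. Kif18b, a kinesin that shortens astral microtubules, had 2.52, 2.03 and 2.95 CPM, the least of all 44. For Kif18b the 3 tumours lay close together, with 111, 22 and 151 UMIs.

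In the cytokinesis group Prc1, which bundles the midzone microtubules, had 93.7, 20.8 and 57.3 CPM, and the chromokinesin Kif4 had 11.2, 4.25 and 7.69 CPM. Top2a, the topoisomerase that untangles sister DNA, had 196, 50.7 and 114 CPM, and Ncapg2, a condensin II subunit, had 16.5, 8.87 and 13.0 CPM. For each of these 4 genes tumour 1 was highest and tumour 2 lowest.

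The UMIs were concentrated in few cells. After every cell was thinned to 2000 UMIs, so that depth was equal, 28.4% of neural cells of tumour 1 had no UMI of the 44 genes, 65.0% in tumour 2 and 46.3% in tumour 4. The 10% of neural cells with the most held 47.2%, 78.2% and 58.3% of these UMIs in tumours 1, 2 and 4. Cells with at least 10 of their 2000 UMIs from the genes made up 15.5%, 5.31% and 10.8%, and the highest cell of each tumour had 40, 42 and 41. The highest cells had like counts in the 3 tumours, while the shares of such cells differed. Of cells with a late gene, 86.2%, 82.2% and 83.4% also had an early gene, where 64.6%, 32.1% and 48.0% of all neural cells did. Of cells with an early gene, 45.5%, 28.7% and 41.9% had a late gene. There are more early than late genes.

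Cell states were set by other genes than the 44. A neural cell was G2/M-marked with at least 2 of 2000 UMIs from 24 other G2/M genes, S-marked with none of these and at least 2 UMIs from 44 S phase genes, and unmarked with none of either. There were 1053, 146 and 1062 G2/M-marked cells in tumours 1, 2 and 4, then 515, 114 and 637 S-marked and 420, 339 and 967 unmarked cells, with the rest left out. UMIs were summed by tumour and state and tested with edgeR's quasi-likelihood test with the tumour as a block, with p-values adjusted by the Benjamini-Hochberg method over all 13707 genes tested outside the lists that set the states. A gene was called at an adjusted p under 0.05. Where genes are said to be higher in every tumour, or to have states that do not overlap, this only describes their values. The share of all genes that do so was not counted.

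All 44 genes rose in G2/M-marked cells over unmarked cells, and each was higher in 3 of 3 tumours. The states were set by other G2/M genes, and the mRNAs of most of the 44 are made in the same part of the cycle. A rise in this direction thus follows largely from the marking, and its p-values are no separate evidence. The sizes of the changes and their order among the genes are described here. Over all genes tested, 7.02% were called higher and 5.19% lower. The median log2 fold change was 4.32 for the 44 genes, from 2.98 to 6.16, against -0.04 for all genes tested, with standard errors of 0.14 to 0.46 and adjusted p from 6.3e-07 to 3.5e-05. Their sum was 5038, 4119 and 4752 CPM in G2/M-marked cells of tumours 1, 2 and 4, against 431, 157 and 243 CPM in unmarked cells. Tumour 2 thus came near the others among G2/M-marked cells, while its unmarked cells were lowest. Median depth was 14238, 9105 and 10490 UMIs in G2/M-marked cells, against 10681, 7894 and 9169 UMIs in unmarked cells; its part in the result was not tested, and states were set at equal depth.

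The largest changes were in genes with few UMIs in unmarked cells. Kif18b had 5.84, 11.7 and 9.31 CPM in G2/M-marked cells of tumours 1, 2 and 4, against 0, 0 and 0.181 CPM in unmarked cells, where only 2 UMIs were counted in all. Over the tumours summed this was a ratio of 74.1, with an exact 95% counting interval of 20.3 to 615. Cep55, needed for the final cut between daughter cells, had 22.4, 38.7 and 31.3 CPM in G2/M-marked cells, against 0.611, 0 and 0.543 CPM in unmarked cells (log2 fold change 5.91 ± 0.36 SE, edgeR adjusted p = 1.7e-06). Sgol1, or shugoshin 1, the guardian of centromeric cohesion, had 63.0, 76.1 and 45.4 CPM in G2/M-marked cells, against 2.85, 0.573 and 0.814 CPM in unmarked cells (5.33 ± 0.27). For all 3 genes the states did not overlap. Bub1 had a log2 fold change of 5.15 ± 0.36, and Hmmr, a spindle protein that also binds hyaluronan, of 5.06 ± 0.28.

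At the lower end stood genes of chromosome structure, the spindle, the centromere, the checkpoint and the passenger complex. Smc4, the condensin ATPase, had 225, 203 and 153 CPM in G2/M-marked cells, against 29.3, 26.4 and 15.8 CPM in unmarked cells (log2 fold change 2.98 ± 0.14, edgeR adjusted p = 6.3e-07). Kif22, a kinesin that pushes chromosome arms outward, changed by 3.12 ± 0.15, and Cenpm, a centromere protein, by 3.21 ± 0.17. Mad2l1 followed at 3.39 ± 0.17 and Incenp at 3.51 ± 0.19. States did not overlap for Smc4, Kif22, Cenpm and Mad2l1 either, a description with no share over all genes beside it. By role, the medians lay between 3.94 (APC/C pathway) and 4.87 (cytokinesis), and early and late genes had nearly the same median, 4.39 and 4.42.

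Between S-marked and unmarked cells the change was smaller and less even. All 44 log2 fold changes were above 0, with a median of 1.37. Unmarked cells were chosen for having no UMI of either list that sets the states. A rise of cell cycle genes in this direction thus follows at least in part from the marking, and its p-values are no separate evidence. Of the genes, 40 were higher in S-marked cells of every tumour, a count with no share over all genes beside it. The test called 9 of the 44 higher and none lower, against 0.642% higher and 0.0146% lower of all genes tested; 39 of the 44 had an unadjusted p under 0.05, against 6.7% of all genes tested. The sums were 742, 360 and 616 CPM in S-marked cells of tumours 1, 2 and 4, against 431, 157 and 243 CPM in unmarked cells. This count depends on the setting. It was 16 with DESeq2 (0.788% of all genes), 24 when 3 UMIs marked a state (1.37%), 33 without tumour 2 (2.33%), 0 without tumour 4 and 0 when cells were thinned to 4000 UMIs. With that thinning the median log2 fold change of the 44 genes was 0.768.

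By role, the 9 called genes were 3 of 4 chromosome structure genes, 3 of 12 kinetochore genes and 1 each of the checkpoint, cytokinesis and spindle groups, with none of the entry, passenger or APC/C genes. Ncapg2 had 10.3, 6.93 and 10.6 CPM in S-marked cells, against 1.43, 2.87 and 2.17 CPM in unmarked cells (log2 fold change 2.23 ± 0.25 SE, edgeR adjusted p = 0.0027). Top2a had 76.1, 33.8 and 56.0 CPM in S-marked cells, against 25.5, 5.45 and 10.9 CPM in unmarked cells (2.03 ± 0.22, edgeR adjusted p = 0.0027). Cdca2, which recruits phosphatase 1 to chromosomes late in mitosis, had 9.86, 6.93 and 3.30 CPM in S-marked cells, against 2.24, 1.72 and 1.27 CPM in unmarked cells (1.80 ± 0.24). For these 3 genes no S-marked value lay below any unmarked value. The other 6 were Cep55 (2.84 ± 0.53), Sgol1 (2.40 ± 0.36), Nusap1 (1.72 ± 0.23), which links microtubules to chromosomes, Cenpm (1.40 ± 0.18), Mad2l1 (1.34 ± 0.19) and the kinetochore gene Spc24 (1.28 ± 0.18). Kif18b and Aurkb, the kinase of the passenger complex, were among the 5 largest changes without a call, with edgeR adjusted p of 0.45 and 0.072.

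At the other end stood Cenpf, Ube2c, Cdca3, Cdc20 and Cenpa, none of which was called. Cenpf had 26.8, 25.1 and 40.3 CPM in S-marked cells, against 20.2, 30.1 and 23.2 CPM in unmarked cells, and the states overlapped (log2 fold change 0.35 ± 0.20, edgeR adjusted p = 0.88). Ube2c had 56.8, 10.4 and 46.5 CPM in S-marked cells, against 46.4, 4.30 and 34.7 CPM in unmarked cells (0.47 ± 0.31, edgeR adjusted p = 0.93). Both values of Ube2c were far under the 537, 304 and 509 CPM of G2/M-marked cells.

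**Figure D2:**
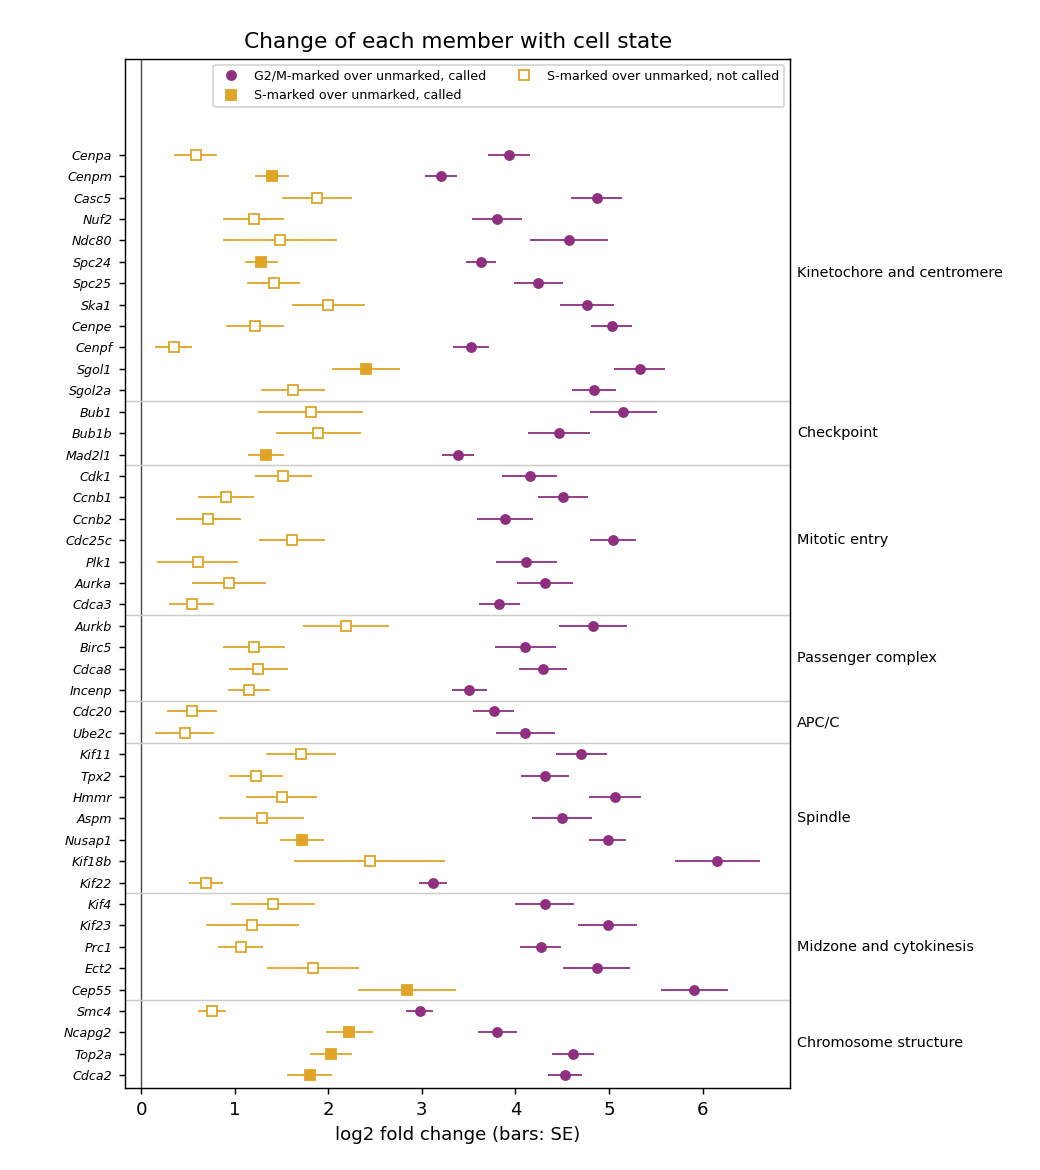
Log2 fold change of each of the 44 genes in G2/M-marked over unmarked neural cells (circles) and in S-marked over unmarked neural cells (squares), over 3 tumours; bars are standard errors, filled symbols are called at an adjusted p under 0.05. All 44 circles are filled and lie from 2.98 to 6.16, and 9 squares are filled, with all 44 squares above 0.

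All 44 genes also rose in G2/M-marked over S-marked cells, in 3 of 3 tumours each, against 2.92% of all genes tested called higher and 0.657% lower. S-marked cells were chosen for having none of the UMIs that mark G2/M, so this direction too follows largely from the marking. The median log2 fold change was 3.06. With no tumour block, 7 of the 44 were called, against 0.167% of all genes. The largest was that of Cenpe, a motor of the kinetochore, with 87.5, 91.5 and 70.0 CPM in G2/M-marked cells, against 6.33, 4.33 and 5.28 CPM in S-marked cells (3.81 ± 0.20 SE, edgeR adjusted p = 9.8e-06). Kif23, the kinesin of the midzone, followed at 3.80 ± 0.29, then Kif18b at 3.72 ± 0.36, Ube2c at 3.64 ± 0.32 and Ccnb1, which encodes cyclin B1, at 3.61 ± 0.26. The smallest was that of Ncapg2, with 30.1, 36.8 and 29.4 CPM in G2/M-marked cells, against 10.3, 6.93 and 10.6 CPM in S-marked cells (1.58 ± 0.17). Cenpm (1.81 ± 0.16), Mad2l1 (2.05 ± 0.15), Smc4 (2.22 ± 0.14) and Spc24 (2.35 ± 0.15) came next. Of these 5, all but Smc4 were also called in S-marked over unmarked cells. Both comparisons use the same S-marked sums, so this overlap is partly built in and is no separate evidence. By role, the chromosome structure genes had the smallest median (2.40), and the APC/C pair the largest (3.43).

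Other genes of the same machinery were taken from 6 lists, of which 90 of 92 genes were tested. In G2/M-marked over unmarked cells 67 of the 90 rose and none fell, with a median log2 fold change of 1.5. For those made late in the cycle, a rise in G2/M-marked cells again follows largely from the marking. Of 23 other centromere genes, 21 rose (median 3.01), and so did 7 of 9 checkpoint genes, 11 of 13 regulators, 10 of 11 condensin and cohesin genes and 11 of 17 spindle genes. Of 17 further genes of the APC/C and its partners, 7 rose, with a median of 0.29. The largest change in that list was that of its inhibitor Fbxo5 (3.54), then that of the ubiquitin enzyme gene Ube2s (1.43). Over all lists the largest were those of Kifc1, a minus-end kinesin (5.35 ± 0.31), the centromere gene Oip5 (5.17 ± 0.32) and the checkpoint gene Kntc1 (4.99 ± 0.40), and the lowest values were those of Kif3a, a transport kinesin (-0.26 ± 0.12), Anapc13 (-0.14 ± 0.09) and Cdc26 (-0.03 ± 0.10), none called. In S-marked over unmarked cells 22 of the 90 rose, led by Kntc1 (3.27 ± 0.52), Stil (2.76 ± 0.41) and Oip5 (2.62 ± 0.45), while Nde1 (-0.20 ± 0.29), Anapc10 (-0.12 ± 0.13) and Anapc13 (-0.11 ± 0.09) had the lowest values, none called. In G2/M-marked over S-marked cells 58 of the 90 rose, with Spdl1 (3.38 ± 0.32) and Kifc1 (3.00 ± 0.25) among the largest changes and the lowest values in Kif3a (-0.25 ± 0.12), Cdc26 (-0.11 ± 0.10) and Anapc2 (-0.08 ± 0.14), none called.

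Late genes made up 21.5% (exact 95% binomial interval 21.2 to 21.7), 17.3% (16.5 to 18.1) and 21.3% (21.0 to 21.6) of the early and late UMIs of neural cells in tumours 1, 2 and 4, a mean of 20.04% ± 2.37 (SD, n = 3). The share was 22.0%, 19.6% and 21.9% in G2/M-marked cells, against 17.8%, 11.3% and 16.8% in S-marked cells. It was higher in G2/M-marked cells in 3 of 3 tumours, by 5.87 points on average (SD 2.15; exact two-sided sign-flip permutation test, p = 0.25, the smallest that 3 tumours allow). In unmarked cells it was 20.5%, 10.0% and 23.9%, so that unmarked cells of tumour 4 lay above its G2/M-marked cells. Most of the late UMIs were those of Ube2c and Cdc20. Without these genes the difference between G2/M-marked and S-marked cells was 2.14 points, again in 3 of 3 tumours.

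**Figure D3:**
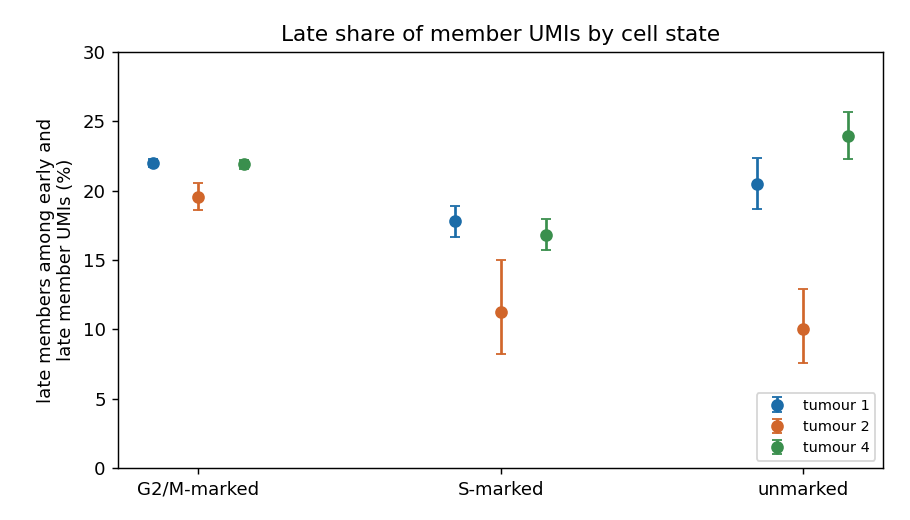
UMIs of the 8 late genes as a percentage of the UMIs of the 32 early and 8 late genes, in G2/M-marked, S-marked and unmarked neural cells of tumours 1, 2 and 4; bars are exact 95% binomial intervals, which cover counting error only. In each tumour the G2/M-marked value lies above the S-marked value, and tumour 2 is lowest in every state.

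The genes were next compared between cell classes, with a cell called positive when at least 3 of its 2000 UMIs were from the 44 genes. Of progenitor-like cells, 36.0% (exact 95% binomial interval 34.3 to 37.8) were positive in tumour 1, 2.07% (0.568 to 5.22) in tumour 2 and 29.5% (28.0 to 31.0) in tumour 4. Of oligodendrocyte-like cells, 9.37% (6.57 to 12.8) were positive in tumour 2 and 13.9% (6.87 to 24.1) in tumour 4. In tumour 2, 20 of these 34 positive cells were from 1 cluster of 22 cells, the deepest of the class, and without it the share was 4.11% (2.26 to 6.79), 14 of 341 cells. Of myeloid cells, 26.5% (20.01 to 33.8), 2.68% (1.39 to 4.64) and 9.76% (4.31 to 18.3) were positive in tumours 1, 2 and 4. At this limit progenitor-like cells thus had the higher share in tumours 1 and 4. In tumour 2 their share lay under that of myeloid cells, with intervals that overlapped. No expression above the level of myeloid cells is read from that share. The mean difference between progenitor-like and myeloid cells was 9.56 points (SD 10.2), higher in 2 of 3 tumours (exact two-sided sign-flip permutation test, p = 0.5; 0.25 is the smallest possible). In tumour 2 the sign of the difference turned at resolution 2 and without myeloid cells that held progenitor markers, with progenitor-like cells then higher in 3 of 3 tumours (exact p = 0.25 each, and differences of 0.0932 and 0.336 points in tumour 2). The limit also mattered. With 1 of 2000 UMIs as the limit, 71.7%, 32.1% (25.6 to 39.2) and 57.3% of progenitor-like cells were positive in tumours 1, 2 and 4. Of myeloid cells, 78.2%, 18.3% (14.9 to 22.2) and 39.0% were, so the direction turned in tumours 1 and 2. Without thinning the shares were 86.1%, 19.7% and 58.9% in progenitor-like cells, against 91.2%, 8.28% and 37.8% in myeloid cells. Median depths were 12080, 6006 and 9727 UMIs in progenitor-like cells, against 13217, 7572 and 8920 UMIs in myeloid cells.

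Myeloid clusters also carried transcripts of the progenitor list. Its 15 genes summed to 1562, 3925 and 1814 CPM in progenitor-like cells of tumours 1, 2 and 4, against 1172, 419 and 1030 CPM in myeloid cells, with no gene at 0. The 20 myeloid markers summed to 219, 1189 and 51.5 CPM in progenitor-like cells, against 15453, 31480 and 21681 CPM in myeloid cells. The part of these shared transcripts in the myeloid shares was not tested. When myeloid cells with at least 2 progenitor marker UMIs were left out, a choice made after the data had been seen, 16.1%, 1.74% and 6.25% of the remaining 87, 403 and 48 myeloid cells were positive. Doublets were not called or removed, and the sort for GFP also bears on which cells each class holds.

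**Figure D4:**
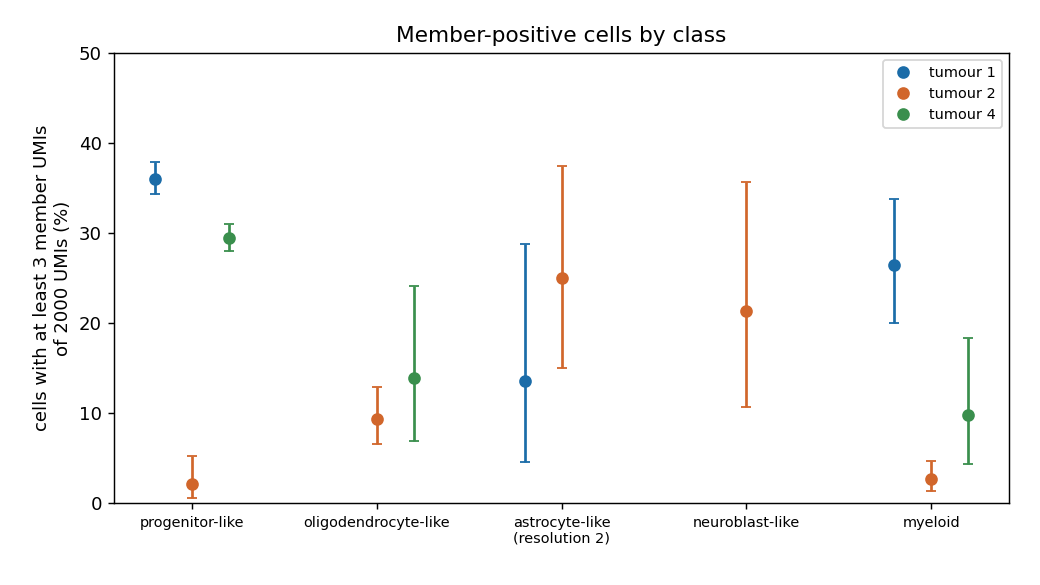
Percentage of cells with at least 3 of 2000 UMIs from the 44 genes in each class and tumour; bars are exact 95% binomial intervals, and astrocyte-like cells are those of the finer clustering. Progenitor-like cells of tumours 1 and 4 lie at 36.0% and 29.5%, and those of tumour 2 at 2.07%.

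Summed over cells, the 44 genes reached 2513, 272 and 1950 CPM in progenitor-like cells of tumours 1, 2 and 4, against 1318, 206 and 962 CPM in myeloid cells, and against 528 and 836 CPM in oligodendrocyte-like cells of tumours 2 and 4. Of the 2500 UMIs behind the 528 CPM, 1731 were from the cluster of 22 cells, and without it the level was 179 CPM (166 to 192), under the 272 CPM of progenitor-like cells. In progenitor-like over myeloid cells 0 of 43 genes tested were called by edgeR in either direction, against 2.22% of 12724 genes called higher and 11.9% called lower. At an unadjusted p under 0.05 there were 7 of the 43, against 29% of all genes. DESeq2 called 1 higher, against 2.94% of all genes. The median log2 fold change was 0.59, with 42 of 43 above 0. Of the 43, 24 were higher in all 3 tumours, a count with no share over all genes beside it. Without tumour 2, 19 of 44 genes were called higher, against 5.3% of all genes. Kif18b was under the filter on low counts.

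None of the largest values was called. Cdc25c had 22.3, 0.723 and 16.2 CPM in progenitor-like cells, against 7.74, 1.36 and 0 CPM in myeloid cells (log2 fold change 1.62 ± 0.75 SE, edgeR adjusted p = 0.20). Aurka, a kinase of the spindle poles, had 28.6, 8.68 and 27.9 CPM in progenitor-like cells, against 11.3, 2.18 and 5.37 CPM in myeloid cells (1.53 ± 0.48, edgeR adjusted p = 0.075). Ccnb1 had 80.0, 23.1 and 71.1 CPM in progenitor-like cells, against 38.7, 6.53 and 24.7 CPM in myeloid cells (1.07 ± 0.35, edgeR adjusted p = 0.087). Aurka and Ccnb1 were higher in progenitor-like cells in every tumour. Ect2, an activator of the contractile ring, had 1.05 ± 0.53 and Kif22 1.03 ± 0.33. The smallest values were those of Incenp (-0.17 ± 0.32), Ncapg2 (0.00 ± 0.40), Top2a (0.09 ± 0.38), Cenpa (0.21 ± 0.44) and Nuf2, a partner of Ndc80 (0.27 ± 0.49). Top2a had 205, 15.2 and 132 CPM in progenitor-like cells, against 124, 10.9 and 118 CPM in myeloid cells. Of the 90 other genes, 2 were higher (Cenpq and Kif2a) and 2 lower (Ndel1 and Tacc1).

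In progenitor-like over oligodendrocyte-like cells, which only tumours 2 and 4 held together, 0 of 43 genes were called by edgeR in either direction, with none at an unadjusted p under 0.05, against 22.8% of all genes, and none by DESeq2. Of all 12724 genes 0.967% were called higher and 4.52% lower. The median log2 fold change was 0.37, with 32 above 0 and 11 below. Only 4 of the 43 genes were higher in progenitor-like cells of both tumours, and none was lower in both. Bub1b, a checkpoint kinase relative, had 2.17 and 10.5 CPM in progenitor-like cells of tumours 2 and 4, against 1.06 and 0 CPM in oligodendrocyte-like cells (1.96 ± 0.90 SE, edgeR adjusted p = 0.24). Sgol2a, the second shugoshin, had 0 and 12.04 CPM in progenitor-like cells, against 6.34 and 10.8 CPM in oligodendrocyte-like cells (-0.80 ± 0.72, edgeR adjusted p = 0.56). Bub1b was higher in progenitor-like cells of both tumours, while Sgol2a was lower in tumour 2 and higher in tumour 4. Aurkb (1.04 ± 0.53), Nuf2 (0.88 ± 0.66), Spc24 (0.81 ± 0.53) and Birc5 (0.77 ± 0.35) came next to Bub1b. Ndc80 (-0.74 ± 0.70), Kif23 (-0.57 ± 0.65), Cep55 (-0.41 ± 0.59) and Bub1 (-0.38 ± 0.89) came next to Sgol2a. With finer clusters (resolution 2), which gave 477 and 599 oligodendrocyte-like cells in tumours 2 and 4, the median was 1.22 and 0 of 44 were called, with 19 at an unadjusted p under 0.05, against 12.7% of all genes. Without the deep cluster of 22 cells, an alternative chosen after the data had been seen, the direction of summed levels in tumour 2 turned. That cluster held 1731 of the 2500 UMIs of the class, so this turn and the calls that follow are tied to leaving it out. The share of positive cells did not turn, at 4.11% in oligodendrocyte-like and 2.07% in progenitor-like cells of tumour 2. By summed level, 38 of the 44 genes were then higher in progenitor-like cells of tumour 2, against 5 with the cluster. The median log2 fold change was 1.28, and 3 of 43 genes were called higher, against 1.51% of all genes. These were Aurkb (2.03 ± 0.49, edgeR adjusted p = 0.045), Nusap1 (1.76 ± 0.35) and Birc5 (1.65 ± 0.31). In the same fit 2 of 43 were called higher in progenitor-like over myeloid cells (Aurka and Ccnb1), against 2.36% of all genes. With the cluster of 22 cells kept, none of the 90 other genes rose and 2 fell in progenitor-like over oligodendrocyte-like cells. Those that fell were Nde1 (-1.73 ± 0.27, edgeR adjusted p = 0.0094), a dynein partner, and the checkpoint gene Mad1l1 (-1.41 ± 0.29).

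Astrocyte-like cells formed no class of their own at the resolution used above. Finer clusters gave 37 such cells in tumour 1 and 64 in tumour 2, of which 13.5% (exact 95% binomial interval 4.54 to 28.8) and 25.0% (15.02 to 37.4) were positive. Progenitor-like cells of that clustering were positive in 45.5% and 2.78%, so the tumours again went opposite ways. In progenitor-like over astrocyte-like cells 0 of 44 genes were called higher or lower by edgeR. Of all 13134 genes tested, 0% were called higher and 0.327% lower. At an unadjusted p under 0.05 there were 8 of the 44, against 9.51% of all genes. The 5 genes with the largest fitted values, Bub1b, Bub1, Ska1, Ndc80 and Kif4, had 0 to 2 UMIs in the astrocyte-like cells. Bub1b had 315 and 2 UMIs (15.7 and 4.29 CPM) in progenitor-like cells of tumours 1 and 2, against 0 and 0 UMIs in astrocyte-like cells. With the 2 tumours pooled and set against 3 UMIs, this was at least 4.80-fold. Nearly all of the progenitor-like UMIs were from tumour 1, so the pooled value is no bound for either tumour alone. The lowest values were those of Cdca8, a passenger complex gene (-0.26 ± 0.52), Cdc20 (-0.10 ± 0.51), Smc4 (-0.03 ± 0.46), Nuf2 (-0.01 ± 0.60) and Cenpa (0.13 ± 0.57).

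Within classes the share of positive cells differed widely between clusters. Clusters in which most cells were positive are described first, so that they hold many positive cells follows from this choice. In tumour 1, 4 progenitor-like clusters were 98.2%, 96.3%, 87.1% and 64.7% positive. They held 986 of the 3190 neural cells and 73.7% of the positive ones, while the other 8 neural clusters ran from 7.62% to 49.5%. In tumour 4, 3 progenitor-like clusters were 95.8%, 85.0% and 69.8% positive. They held 793 of the 4295 neural cells and 65.6% of the positive ones, while the other 11 ran from 5.78% to 31.6%. Tumour 2 differed. There 61.9% of the positive neural cells lay in an unnamed cluster of 239 cells, 34.7% (28.7 to 41.1) of them positive, which carried progenitor, astrocyte, oligodendrocyte and myeloid markers and was led by genes such as Ttr, Igfbp2 and Fabp7. Its median mitochondrial share was 9.75%, and its part in the result was not tested. A further 14.9% lay in an oligodendrocyte-like cluster of 22 cells, of which 20 were positive (90.9%, 70.8 to 98.9). Its 10 leading genes included Mdm2, Bbc3 and Gdf15, known targets of p53. Its median depth of 19162 UMIs stood beside 10891 UMIs for all oligodendrocyte-like cells of that tumour, and the part of doublets was not tested. Of 47 neuroblast-like cells of tumour 2, 10 were positive (21.3%, 10.7 to 35.7), and of 20 T or NK cells, 4 were (20%, 5.73 to 43.7).

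**Figure D5:**
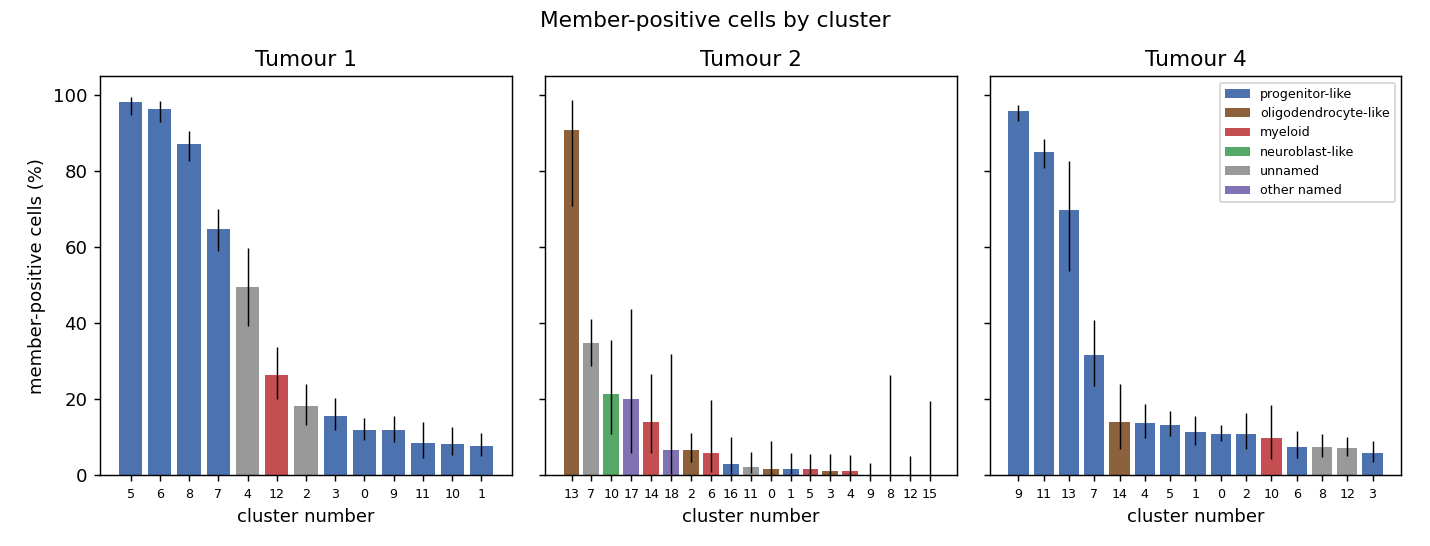
Percentage of cells with at least 3 of 2000 UMIs from the 44 genes in each cluster of tumours 1, 2 and 4, sorted within each tumour and coloured by class; bars are exact 95% binomial intervals. In tumours 1 and 4 the highest bars (98.2% and 95.8%) are progenitor-like clusters, and in tumour 2 they are an oligodendrocyte-like cluster of 22 cells (90.9%) and an unnamed cluster (34.7%).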

How the data were processed

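The authors deposited unique molecular identifier (UMI) counts per gene and cell for 3 GFP-sorted tumours, from 10x 3′ libraries. The submitters' processing notes name Cell Ranger 1.3.0, STAR 2.5.1 and mm10. Cells with at least 500 genes, at most 20% mitochondrial and at most 10% haemoglobin UMIs were kept. Doublets were neither called nor removed.

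Clusters were made for each tumour with scanpy 1.11.5 without 231 cell cycle genes (2000 variable genes, 30 components, 15 neighbours, Leiden resolution 1). They were named from marker lists, with limits set after marker levels had been seen, so class names are rebuilt here. UMIs were summed by tumour and state or class, with at least 20 cells each. The sums were tested with edgeR 4.0.16 (TMM scaling, default filter on low counts, quasi-likelihood test, tumour as a block). States and classes of a tumour come from the same library, which is what pairs them. With this block, each p-value sets a difference between states or classes against the variation left in the fit. That variation is estimated over all states or classes of the fit and shared in part between genes. Differences in level between tumours are taken out by the block. For state comparisons p-values were adjusted over all genes tested outside the defining lists, and for class comparisons over all genes tested. The deepest oligodendrocyte-like cluster of tumour 2 and myeloid cells with progenitor marker UMIs were also left out, choices made after the data had been seen. Gene fold changes are given with standard errors.

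Alternatives were DESeq2 1.42.0, its size factors, no filter, no block, other depths, thresholds, clusterings and leaving out each tumour. The fit by state was tested on simulated data for G2/M-marked over unmarked cells only, with no tumour effect simulated. The fits by class were not tested in this way. Genes named were the highest and lowest of each role, the 5 largest and 5 smallest fold changes of each comparison, the 3 largest and 3 smallest of the other lists, and the 6 genes whose promoters are shown. A gene of the other lists that this rule names is not reported here. Further genes were named after their values had been seen. The 44 genes and all lists were chosen with earlier results of these data known.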

Additional observations from a re-analysis of the deposited data

How the results depend on the processing

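The 44 genes rose in G2/M-marked over unmarked cells under every alternative run, except that 36 were called without the tumour block (1.21% of all genes). Every alternative kept states set by other G2/M genes, so this direction follows largely from the marking in each. Without the replicate block, 7 of the 44 were called in G2/M-marked over S-marked cells (0.167% of all genes) and 0 in S-marked over unmarked cells (0%). That last count, 9 in the report, was 16 with DESeq2 (0.788% of all genes) and 30 with no filter on low counts (1.03%). It was 24 with 3 UMIs to mark a state (1.37%), 33 in progenitor-like cells only (2.22%) and 0 with thinning to 4000 UMIs (0%). With 1 tumour left out it ran from 0 without tumour 4 (0%) to 33 without tumour 2 (2.33%). In progenitor-like over myeloid cells, where 0 were called, the count was 1 with DESeq2 (2.94% of all genes) and 6 with no filter (4.31%). It was 1 without myeloid cells that held progenitor marker UMIs (7.98%). With 1 tumour left out it was 0 to 19, with 19 without tumour 2 (5.3%). Without the deepest oligodendrocyte-like cluster of tumour 2, 22 cells, the count against myeloid cells was 2 (2.36% of all genes). In progenitor-like over oligodendrocyte-like cells it was then 3 (1.51%), in place of 0. The mean share of positive neural cells, 24.4%, was 53.4% with 1 UMI as the limit and 57.1% with no thinning. The late share, 20.04%, was 27.2% with the passenger genes counted as late and 8.96% without Cdc20 and Ube2c, and the difference between G2/M-marked and S-marked cells was then 2.14 points. The causes were not tested. No result changed sign past the threshold. Over 50 named gene results (10 a comparison) and 510 alternative values, 467 kept their side of the threshold, 18 fell short of it and 25 newly passed it. Values that were not called changed sign 13 times against myeloid cells and 20 times against oligodendrocyte-like cells.

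In the class comparisons, tumour 2 had 193 progenitor-like cells and tumour 4 had 72 oligodendrocyte-like cells, which limits their precision. At resolution 0.5 tumour 2 had no progenitor-like class, and in progenitor-like cells alone it had too few G2/M-marked cells, so neither gave a value there. Astrocyte-like cells were a class at resolution 2 only in the planned clusterings without cycle genes, so other alternatives were not run for them.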

Other observations

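By class, late genes made up 21.6%, 14.96% and 21.5% of early and late UMIs in progenitor-like cells of tumours 1, 2 and 4, and 20.3%, 16.3% and 19.1% in myeloid cells. In oligodendrocyte-like cells of tumours 2 and 4 the late share was 16.0% and 18.7%. In tumours 1 and 4 the progenitor-like value was the higher, and in tumour 2 it was the lowest of the 3 classes. In each of the 3 tumours the exact 95% binomial intervals of the classes overlapped.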
